A study of Caenorhabditis elegans with 2 samples.

Results

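The genes considered here are sls-2.1, sls-2.2, sls-2.4 and sls-2.8, 4 of the 18 genes named sls-2 among 46890 annotated nuclear genes of Caenorhabditis elegans. They encode SL2 spliced-leader RNAs. They were selected on measured values, namely strong ZTF-11 peaks close to their 5' ends, so their peaks are given as a description and no test was made on them. For each gene, regions were collected whose summit lay within 1000 bp of the annotated 5' end, and the other 14 genes named sls-2 serve as comparison. ZTF-11, the worm protein of the MYT1 family of zinc-finger factors, was mapped by chromatin immunoprecipitation and sequencing (ChIP-seq) in 2 biological replicates of a single group. The animals were whole hermaphrodites of strain OP511, genotype unc-119(tm4063) III; wgIs511, at the L1 larval stage, 6 hours after they were synchronized as starved L1 larvae following bleaching. Both replicates carried the same unc-119 allele and the same integrated transgene, which expresses ZTF-11 with a GFP-FLAG tag at its C terminus and which an antibody against GFP precipitates. Whole larvae were used, so the cells in which a site was bound cannot be told apart, and the single strain gives no untagged or mutant group to set beside it.

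Many C. elegans messenger RNAs receive their first bases by trans-splicing, in which a short leader is donated by a separate spliced-leader RNA. SL1 is the leader of most trans-spliced genes that stand alone or come first in an operon, whereas SL2 and its variants are given mainly to downstream genes of operons, whose polycistronic transcript is cut into single messages. Each spliced-leader RNA is a small transcript made by RNA polymerase II, with the leader at its 5' end, a splice donor after it and a site for Sm proteins further on. In nematodes, genes for small nuclear RNAs and spliced-leader RNAs carry a conserved promoter element a short way upstream of the RNA start. The 4 genes lay apart from each other, and all were annotated as snRNA genes on the plus strand.

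The upstream sequences are shown because the strongest summits fell in them, and sls-2.3 and sls-2.14 are shown as the nearest relative and as the comparison gene with the strongest peak at its 5' end. Each line holds the 100 bases before the annotated 5' end, 5′ to 3′ along the gene, read from the RefSeq copy of WBcel235 (ce11). The windows are chrII:5844765-5844864 (+) for sls-2.1, chrII:5543498-5543597 (+) for sls-2.2, chrIII:12250365-12250464 (+) for sls-2.8, chrII:5544274-5544373 (-) for sls-2.3 and chrIII:11090524-11090623 (-) for sls-2.14. The sls-2.1 window overlaps no annotated gene, those of sls-2.2, sls-2.8 and sls-2.3 overlap an exon of a non-coding gene on the other strand, and that of sls-2.14 lies in an intron of W09D6.5. Capitals mark the longest block of bases identical in sls-2.1 to sls-2.4 or, in sls-2.8 and sls-2.14, the word AACCCG.
sls-2.1: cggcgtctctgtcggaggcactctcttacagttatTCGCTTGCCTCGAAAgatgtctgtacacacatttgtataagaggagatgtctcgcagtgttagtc
sls-2.2: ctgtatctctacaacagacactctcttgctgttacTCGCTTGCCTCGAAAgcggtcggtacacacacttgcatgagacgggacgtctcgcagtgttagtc
sls-2.8: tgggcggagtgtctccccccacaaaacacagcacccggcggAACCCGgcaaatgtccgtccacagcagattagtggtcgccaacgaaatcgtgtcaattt
sls-2.3: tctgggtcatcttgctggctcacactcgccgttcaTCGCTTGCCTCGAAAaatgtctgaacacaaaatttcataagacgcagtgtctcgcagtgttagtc
sls-2.14: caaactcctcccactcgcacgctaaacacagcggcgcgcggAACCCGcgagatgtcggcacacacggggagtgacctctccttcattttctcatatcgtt

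The RNA genes of the same loci are shown to compare the transcripts that follow these windows, with the predicted leader in capitals, read up to the first GT that comes after AG.
sls-2.1: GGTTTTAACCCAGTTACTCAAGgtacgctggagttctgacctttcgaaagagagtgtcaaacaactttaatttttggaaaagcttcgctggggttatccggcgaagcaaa
sls-2.2: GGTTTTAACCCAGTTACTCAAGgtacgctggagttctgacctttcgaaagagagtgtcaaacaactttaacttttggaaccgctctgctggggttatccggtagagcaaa
sls-2.8: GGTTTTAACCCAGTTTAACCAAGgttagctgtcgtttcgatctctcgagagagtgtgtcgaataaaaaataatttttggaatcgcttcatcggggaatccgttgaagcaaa
sls-2.3: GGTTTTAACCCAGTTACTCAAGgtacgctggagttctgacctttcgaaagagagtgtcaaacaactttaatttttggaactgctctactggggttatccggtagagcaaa
sls-2.14: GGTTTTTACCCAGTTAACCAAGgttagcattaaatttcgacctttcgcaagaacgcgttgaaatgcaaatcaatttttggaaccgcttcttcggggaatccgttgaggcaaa

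The sls-2.1, sls-2.2, sls-2.4 and sls-2.3 genes shared the same leader of 22 bases, whereas the sls-2.8 leader had 23 bases and was found in no other gene named sls-2. The 18 genes held 11 different leaders. A site of the Sm type, here AA, 4 to 6 T and GG, began at base 69 of sls-2.1 and sls-2.4 and at base 71 of sls-2.8. This pattern was not found in sls-2.2 or in 1 comparison gene, sls-2.18, and was found in the other 16 genes. Over the RNA gene, sls-2.2 was 96.4% identical to sls-2.4 and 92.7% identical to sls-2.1, and the 6 pairs among sls-2.1, sls-2.2, sls-2.4 and sls-2.8 ran from 72.3% to 96.4% with a median of 83%. Pairs of a selected gene with a comparison gene had a median of 75.7%, and the 91 pairs among comparison genes had a median of 76.3%. Upstream, without gaps over 100 bases, the selected pairs were 30% to 79% identical with a median of 46.5%, against a median of 38% between comparison genes.

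The peaks come from 4 deposited lists on ce11, which are described by the signal that the authors' peak caller gave to each region. The list kept by the irreproducible discovery rate (IDR), a measure of agreement between replicates, held 1875 peaks with a median signal of 107 and a highest of 1072. The pooled list and both replicate lists held 30000 regions each, background included, so that presence in them is not a call. Signal scales differ between the lists, with medians of 27.5 in the pooled list, 18.5 in replicate 1 and 12.8 in replicate 2, and regions are therefore compared by rank within a list, where rank 1 is the strongest. These lists give no read depth, so the precision behind a single signal is unknown, and the control was not analysed here.

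All 4 selected genes had an IDR summit within 100 bp of the 5' end, and each of these peaks ranked among the 200 strongest of the list. Of the comparison genes, 2 of 14 had an IDR summit at that distance, sls-2.9 and sls-2.14, which makes 6 of all 18 genes named sls-2. Among all annotated nuclear genes 1.39% had one, and among 99 snRNA genes not named sls 10.1% had one. Within 1000 bp the IDR counts were 4 of 4 selected genes and 4 of 14 comparison genes, or 8 of all 18. Of these comparison genes, sls-2.3 counted only through the peaks of sls-2.2, and sls-2.15 only through summits 459 and 838 bp away. The shares were 5.75% of all annotated genes and 11.1% of the other snRNA genes. Any region of the pooled list within 1000 bp was found for 4 of 4 selected and 10 of 14 comparison genes, where the share of all genes was 47.7%. The selected genes were picked on these peaks, so their count against these shares carries no weight of its own. The comparison genes are those left after that choice, which lowers their count, so it carries no such weight either.

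The strongest of the 4 sites was at sls-2.4 (WBGene00004836), an SL2 RNA gene on chromosome I from 4172206 to 4172315. Its signal was 472 in replicate 1, at rank 12, and 339 in replicate 2, at rank 4. In the pooled and IDR lists the region ran from 4171998 to 4172302 with a signal of 804, rank 5. Both replicates therefore placed it among their 12 strongest regions. The gene sls-2.1 (WBGene00004833), on chromosome II from 5844865 to 5844974, had signals of 311 in replicate 1, rank 48, and 216 in replicate 2, rank 20. Its pooled region, from 5844680 to 5844893, had a signal of 518 and rank 41. It stood second of the 4 in both replicates.

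The gene sls-2.2 (WBGene00004834), on chromosome II from 5543598 to 5543707, had signals of 225 in replicate 1, rank 120, and 131 in replicate 2, rank 123. Its pooled region, from 5543460 to 5543626, had a signal of 349 and rank 126. The gene sls-2.8 (WBGene00004840), on chromosome III from 12250465 to 12250575, had signals of 191 in replicate 1, rank 190, and 132 in replicate 2, rank 119. Its pooled region ran from 12250305 to 12250486 with a signal of 323 and rank 157. Thus sls-2.2 was above sls-2.8 in replicate 1 and level with it in replicate 2, so the order of these neighbours was not the same in both samples, while sls-2.4 and sls-2.1 kept theirs. The weakest selected site, at sls-2.8 with 323, and the strongest 5' end site outside the selection, at sls-2.14 with 101 in the pooled list, mark the values just inside and just outside the choice. The plot of ranks by list sets these values beside those of the comparison genes.

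**Figure D1:**
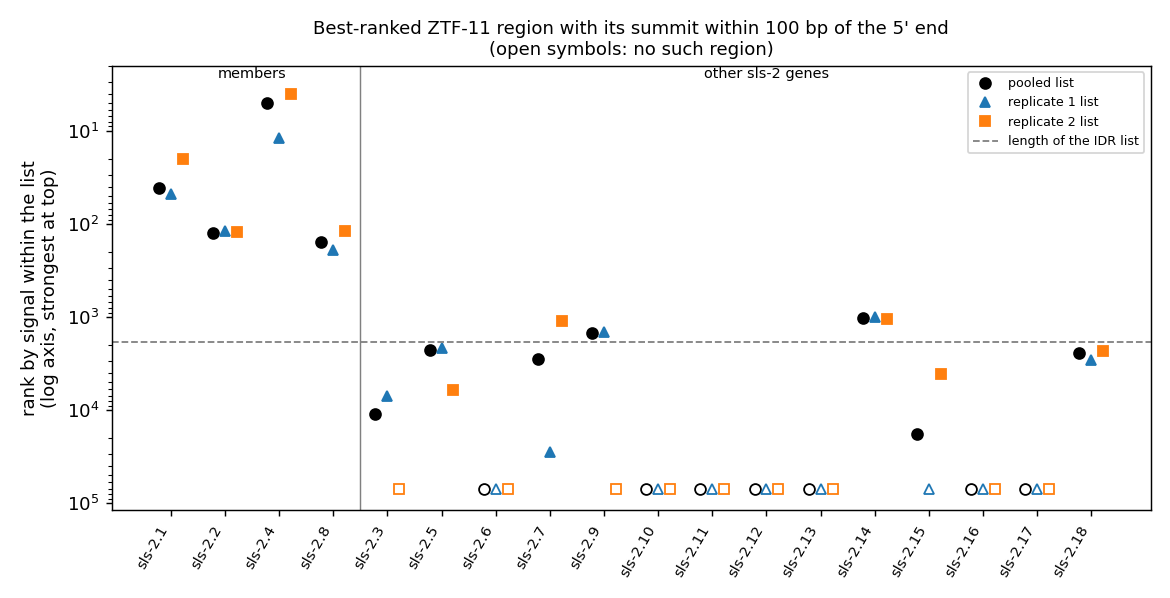
Rank of the strongest region whose summit lay within 100 bp of the 5' end, for each gene named sls-2 (horizontal axis, the 4 selected genes first) in the pooled list and both replicate lists (log axis, strongest at the top). The dashed line is the length of the IDR list, 1875, and open symbols mark genes with no such region. The selected genes, chosen on strong peaks, ranked from 4 to 190, and every comparison gene lay below them.

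The summits fell just upstream of the RNA start in every list. In the pooled list they lay 53 bp upstream of the 5' end at sls-2.1, 41 bp at sls-2.2, 23 bp at sls-2.4 and 44 bp at sls-2.8, with a mean offset of -40.2 ± 12.6 bp (SD over 4 genes, negative upstream). The mean offset was -43.8 ± 15.5 bp in replicate 1 and -58.5 ± 5.7 bp in replicate 2 over the same 4 genes. The largest shift between the replicates was at sls-2.4, with offsets of -23 bp in replicate 1 and -55 bp in replicate 2. The main summits of all 4 genes were upstream of the 5' end in each replicate and in the pooled list, which is made from both replicates. Their closeness to the 5' end follows in part from the choice of these genes. The regions around them were narrow, 121 to 305 bp wide, where most regions had the list's commonest width of 364 bp in the pooled list and in replicate 1 and 344 bp in replicate 2. Narrow regions were usual among strong ones, as 187 of the 200 strongest pooled regions were narrower than the commonest width.

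Each of the 4 genes also had a second, weaker summit downstream, beyond the last base of the RNA gene. In the pooled list its offset was 161 bp at sls-2.1, 163 bp at sls-2.2, 177 bp at sls-2.4 and 158 bp at sls-2.8. The pooled signals of these second summits were 61.3, 162, 164 and 87.2 in the same order of genes, and the main summit was 8.46, 2.16, 4.9 and 3.71 times as strong. All but that of sls-2.1, at rank 2093, were IDR peaks. Both replicates showed the second summit at all 4 genes, from 146 to 182 bp downstream of the 5' end in replicate 1 and from 134 to 155 bp in replicate 2.

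The strongest second summits belonged to sls-2.2 and sls-2.4. At sls-2.2 the second signal was 83.9 in replicate 1 and 67.6 in replicate 2, and at sls-2.4 it was 88.3 in replicate 1 and 76.2 in replicate 2. Main and second summits were 200 to 214 bp apart in the pooled list, 200 to 218 bp in replicate 1 and 201 to 210 bp in replicate 2. The smallest gap between any neighbouring summits of the pooled list was 199 bp, so the pooled gaps were close to the least spacing that list holds. A weaker pooled summit 100 to 300 bp away was present beside 15.2% of all IDR peaks and beside 13.5% of the 200 strongest. The pair was not particular to the selected genes. The comparison gene sls-2.18 had pooled summits at -76 bp with a signal of 54.8 and at 137 bp with 36.9, both below the IDR list. Its offsets were -76 and 137 bp in replicate 1, and 29 bp, inside the RNA gene, and 232 bp in replicate 2. The second summit of sls-2.18 ranked 6194 in the pooled list, 18628 in replicate 1 and 19364 in replicate 2, so it is not a call. The map of regions shows the main and second summits of each selected gene on either side of its RNA gene.

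**Figure D2:**
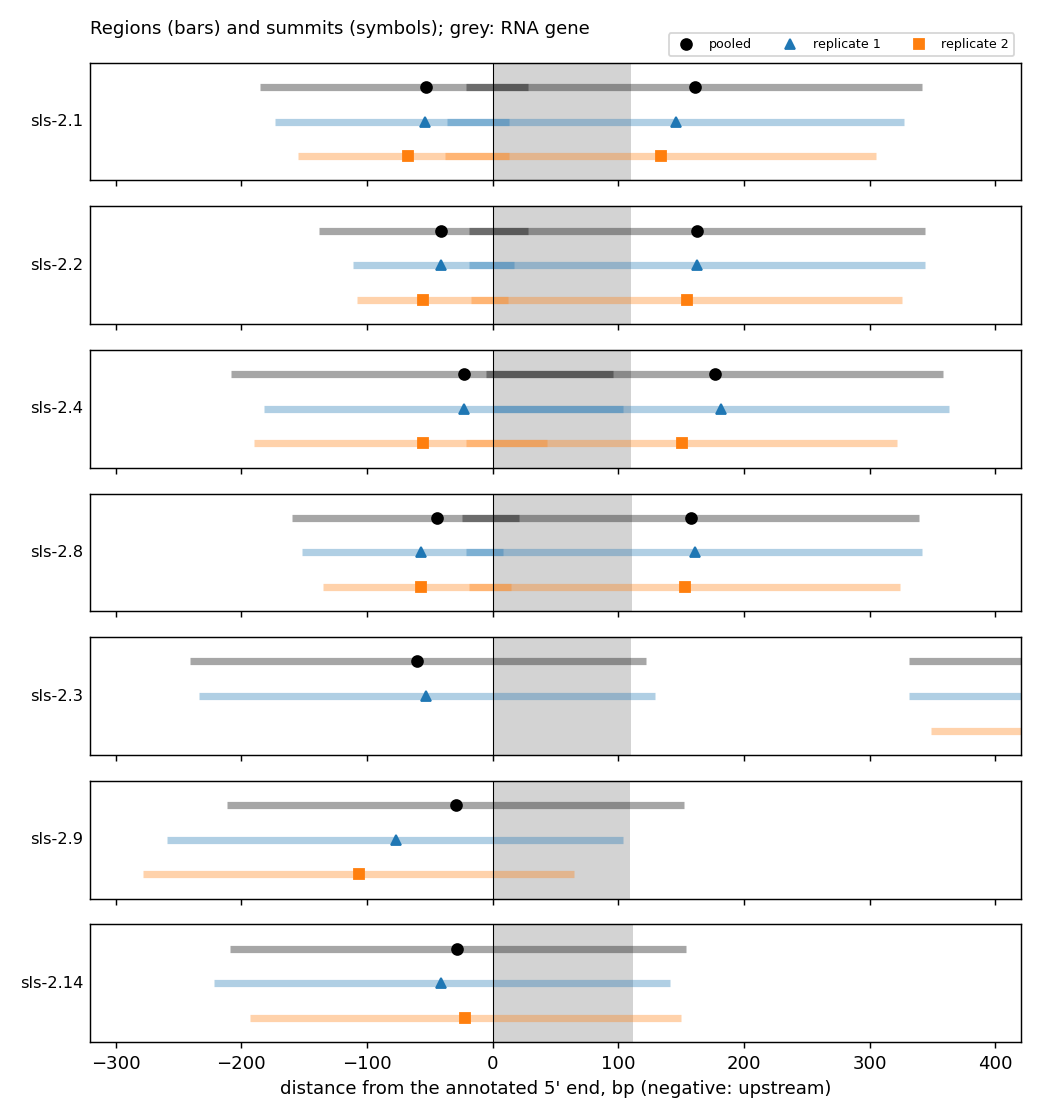
Regions (bars, coloured by list) and summits (symbols) of the pooled and replicate lists against distance from the 5' end in bp along the gene, for the 4 selected genes and then sls-2.3, sls-2.9 and sls-2.14; grey boxes are the RNA genes. At the selected genes the main summits lay from 67 to 23 bp upstream and the second summits from 134 to 182 bp downstream, and the regions at the right of sls-2.3 are those of sls-2.2.

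The closest relative of sls-2.2 had almost no signal of its own. The 5' ends of sls-2.2 and sls-2.3 were 675 bp apart on chromosome II on opposite strands, their RNA genes were 97.3% identical, and both carried the shared upstream block. The pooled signal at the 5' end was 349 at sls-2.2, rank 126, and 30.6 at sls-2.3, rank 10962. In replicate 1 it was 225 at sls-2.2 and 23.9 at sls-2.3, at rank 7056. In replicate 2 it was 131 at sls-2.2, and no region of sls-2.3 lay within 100 bp of its 5' end. The IDR summits counted for sls-2.3 within 1000 bp, 716 bp and 512 bp downstream of its 5' end, were the main and second summits of sls-2.2. Upstream identity between the neighbours was 65%, below the 79% between sls-2.1 and sls-2.2 and above the 57% between sls-2.2 and sls-2.4.

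Repeated sequence could limit where reads are placed, and it was therefore measured around each 5' end as the number of genome places of every word of 50 bases. Within 250 bp of the 5' end 95.5% of words were unique over the selected genes and 94.4% over the comparison genes. The share was 90.4% at sls-2.1, 92.4% at sls-2.2, 99.2% at sls-2.4 and 100% at sls-2.8, against 90.4% at sls-2.3. The repeated words of sls-2.1 began between 18 bases before and 29 bases after the 5' end, and those of sls-2.3 began over the same stretch. They covered the leader and the bases after it, up to 78 bases past the 5' end, and so lay between the main and the second summit of sls-2.1. At sls-2.8 every such word was unique, and its main and second summits were 202 bp apart in the pooled list. Read length and the handling of reads with several possible places were not given, and the part of repeated sequence in the sls-2.3 values and in the paired summits was not tested.

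**Figure D3:**
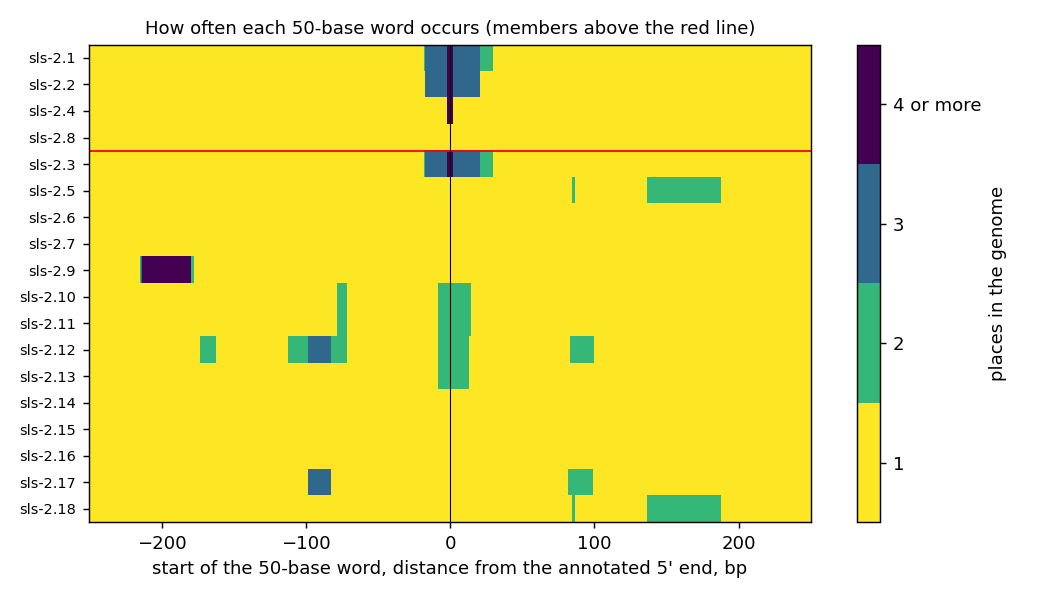
Number of genome places (colour) of each 50-base word against the position of its first base relative to the 5' end in bp, for the 18 genes named sls-2, with the 4 selected genes above the red line. Words with more than 1 place at sls-2.1, sls-2.2 and sls-2.4 lay around the 5' end, and sls-2.8 had none.

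Among the other comparison genes, sls-2.14 came nearest to the selected genes. Its summit lay 28 bp upstream of the 5' end in the pooled list with a signal of 101 and rank 1016, and its signals were 64.8 in replicate 1, rank 998, and 37.5 in replicate 2, rank 1064. The summit of sls-2.9 lay 29 bp upstream in the pooled list, 77 bp in replicate 1 and, outside the 100 bp limit, 106 bp in replicate 2. The gene sls-2.9 had a pooled signal of 76.8, rank 1500, with signals of 51 in replicate 1, rank 1437, and 28.9 in replicate 2, rank 1612. Both genes thus had IDR peaks in the lower part of the list, at similar ranks in both replicates. The main values of the selected genes did not overlap with these in any list, which follows from their choice on strong peaks.

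Regions below the IDR list lay within 100 bp of the 5' end at sls-2.5, sls-2.7, sls-2.15 and sls-2.18, besides sls-2.3. Their nearest pooled signals were 58.3 at sls-2.5, 51 at sls-2.7, 25.7 at sls-2.15 and 54.8 at sls-2.18. For sls-2.7 the replicates differed, with rank 28408 in replicate 1 and rank 1121 in replicate 2. The IDR summits counted for sls-2.15 lay 459 bp upstream, which is that of sls-2.14, and 838 bp downstream, with a signal of 353 and rank 119. The order of that distant peak and the one at sls-2.8 turned between the replicates, with signals of 191 at sls-2.8 and 260 at the distant peak in replicate 1, and 132 at sls-2.8 and 92.3 at the distant peak in replicate 2. The nearest pooled summits of sls-2.10, sls-2.11 and sls-2.16 lay 478, 583 and 824 bp from the 5' end. The genes sls-2.13 and sls-2.17 had a region in replicate 2 alone, at ranks 20176 and 21548. No region of any list lay within 1000 bp of sls-2.6 or sls-2.12.

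The related SL1 RNA genes, 12 genes named sls-1 in a repeated cluster on chromosome V, had no region within 1000 bp of the 5' end in any of the 4 lists. Around their 5' ends 2.69% of 50-base words were unique, with a median of 11 places in the genome for each word, against the 95.5% unique at the selected SL2 genes. The part of this repetition in the empty result was not tested.

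Upstream of sls-2.1, sls-2.2, sls-2.3 and sls-2.4, 47 of 100 positions held the same base in all 4 genes. The longest run of such positions was the 15-base block in capitals above, from -65 to -51 relative to the 5' end. The pooled main summit of sls-2.1, at -53, lay inside the block, and those of sls-2.2 and sls-2.4 lay between it and the RNA start. In replicate 1 the summit of sls-2.1, at -54, was again inside and those of sls-2.2, at -41, and sls-2.4, at -23, were again downstream of the block. In replicate 2 this was reversed, with sls-2.1 at -67, upstream of the block, and sls-2.2 and sls-2.4 both at -55, inside it. The block was found in the 100 bases before 4 of 46890 annotated genes, which were these same 4, and so it was present at sls-2.3 with its signal of 30.6 as well. In sls-2.8 the corresponding place held another word, AACCCG beginning at -59, which stood at that position in 10 of 18 genes named sls-2 and in 1 of the 4 selected genes. Over all annotated genes 0.0448% had AACCCG there. TGTC began at -48 or -47 in 15 of 18 genes and in 3 of the 4 selected ones, against 1003 of 46890 annotated genes with TGTC beginning from -50 to -45. Block, words and positions were all read from these same sequences, so the shares of all genes are a description and not a test. The profile of shared bases shows where these stretches lie relative to the summits.

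**Figure D4:**
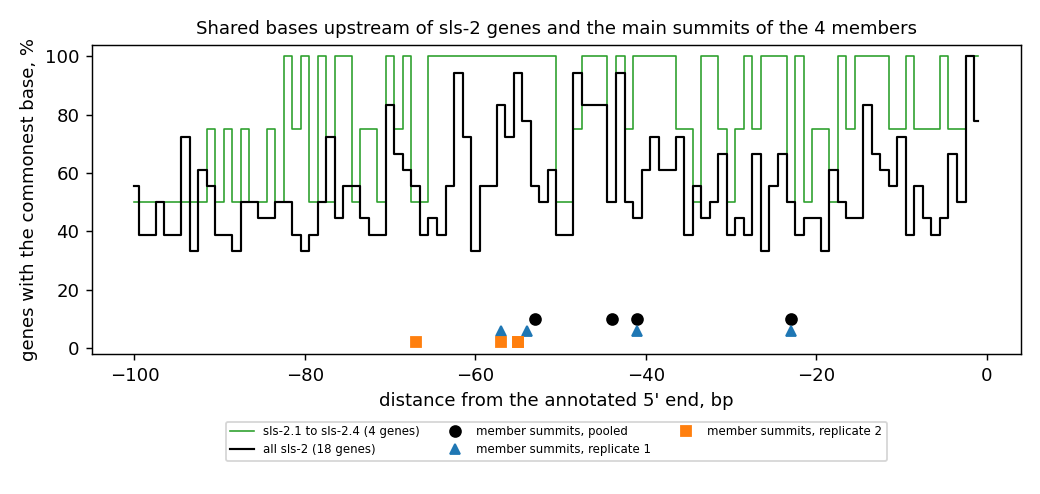
Percent of genes that hold the commonest base at each position from 100 bases upstream to the 5' end, for sls-2.1 to sls-2.4 (4 genes) and for all 18 genes named sls-2, with the main summits of the selected genes marked by list. The stretch from -65 to -51 was identical in the first 4 genes, and the marked summits lay from -67 to -23.

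Short motifs were searched on both strands from 250 bases before to 50 bases after the 5' end. AAGTT, the core bound by MYT1-family proteins of vertebrates, was found in 0 of 4 selected genes and 9 of 14 comparison genes, while 73.7% of all such windows held it. Its absence holds for this window only. Further into the RNA genes of sls-2.1 and sls-2.2, as printed above, stands AACTT, the reverse complement of AAGTT. Sequence past the window, where the second summits lay, was not searched. GAGAGA was found in 1 of 4 selected genes, sls-2.8, and in 3 of 14 comparison genes, against 17.5% of all windows. CTGCGTCT and GGCGGG were each found in 0 of 4 selected and 2 of 14 comparison genes, against 2.24% and 5.02% of all windows. These matches describe letters in a window and say nothing of what bound there. Base composition was measured over 50 bases to each side of the pooled main summits, and not at the second summits. It was ordinary, with 48.5% G and C at sls-2.1, 51.5% at sls-2.2, 50.5% at sls-2.4 and 53.5% at sls-2.8. The median of all IDR peaks was 49.5%, with quartiles of 44.6% and 54.5%.

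The surroundings of the 4 genes differed. No coding gene covered the 5' end of any of them. The nearest coding 5' end was that of ZK1248.17, 676 bp from sls-2.1, that of the insulin-like peptide gene ins-13, 1266 bp from sls-2.2, that of egg-5, 617 bp from sls-2.4, and that of Y75B8A.23, 195 bp from sls-2.8. The egg-5 gene encodes a pseudophosphatase of the egg-to-embryo transition. Annotated non-coding genes on the other strand overlapped sls-2.2 (C17C3.23), sls-2.4 (R12E2.18) and sls-2.8 (Y75B8A.49), and none was annotated at sls-2.1. ChIP-seq peaks have no strand, so a summit there cannot be assigned to the RNA gene over its antisense partner. With the 1000 bp limit, the main peaks of sls-2.1, sls-2.4 and sls-2.8 likewise counted for ZK1248.17, egg-5 and Y75B8A.23, respectively, as well. The main peak of sls-2.2 did not count for ins-13.

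The IDR peaks most like each of the 4 in signal were found by distance in log10 signal over the 2 replicates, among 1783 IDR peaks with a summit within 100 bp in both replicate lists. For sls-2.4 they were the peaks nearest to rpl-3, which encodes a ribosomal protein of the large subunit, with signals of 527 in replicate 1 and 343 in replicate 2, and nearest to Y17G9B.5, with 450 and 289. For sls-2.1 they lay nearest to cox-5A, a gene for a subunit of cytochrome c oxidase, with signals of 304 in replicate 1 and 213 in replicate 2, and to cest-16, with 323 and 221. For sls-2.2 they lay nearest to serp-1.1, with 221 and 131, and to the non-coding gene F52F12.17, with 230 and 129. For sls-2.8 they lay nearest to another snRNA gene, T11F9.15, with 192 in replicate 1 and 131 in replicate 2, and to the non-coding gene C30C11.14, with 189 and 132. The summits of these last peaks were 56 and 52 bp from the annotated 5' ends. Those nearest to rpl-3, Y17G9B.5, cox-5A and serp-1.1 were 165 to 293 bp away. The peaks nearest to cest-16 and F52F12.17 were 3382 and 1296 bp away, so they do not count for those genes within 1000 bp.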

How the data were processed

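ZTF-11-GFP ChIP-seq of 2 replicates was deposited as lists of regions, and the members, gene lists and motifs used here were chosen with earlier results of these data known. Per the deposited text files, regions were called with a control alignment for each replicate and for both replicates pooled, and the authors thresholded these to obtain the IDR list. The signal is the authors' caller value for each region, on a scale that differs between lists. The −log10 of the q-value, as deposited, was capped within each list at 3.28 to 3.37 and not used further. Deposited summit offsets gave positions. The aligner and the caller, with their versions, and the cutoff for IDR were not given in the sources used here.

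Lists on ce11 were joined to Ensembl release 115 genes (WBcel235), and positions are counted from 1. Lists on ce10 were not used, and no coordinate was converted. A summit counted for a gene within 1000 bp of its 5' end, or within 100 bp where stated, and regions were ranked by signal. With 1 group no test was possible. The text names the selected genes, the other genes named sls-2, the SL1 genes, the nearest coding gene of each selected gene and the 2 IDR peaks most like it. Words of 50 bases were counted on both strands of the genome. Pairwise identity came from global alignment of RNA genes and ungapped comparison of upstream bases. Python 3.11.15, pandas 2.3.3, NumPy 2.4.6, Biopython 1.88 and matplotlib 3.10.9 were used, and the summit joins and word counts were tested on simulated data. Alternatives were other distances, parts of the lists, each replicate alone, region midpoints and other word lengths.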

Additional observations from a re-analysis of the deposited data

How the results depend on the processing

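The 4 selected genes kept a region under every distance tried, in the IDR list and in the other lists. All 4 also had a region in both replicates under every rank limit tried. Both outcomes follow from the choice of these genes on strong peaks and are no measure of robustness. Of 40 alternative values, 26 stayed within the limits set and 14 moved, where the 26 include the values of the selected genes just named. Counts were held to a factor of 1.5, and the median distance to 6.01 bp, the SD of only 2 replicate medians. Shares of unique words were held to a binomial interval that treats overlapping words as independent, so it does not measure the spread between genes. The number of genes named sls-2 with an IDR summit within 1000 bp was 8, which includes sls-2.3 and sls-2.15 through distant summits only. With any region of the pooled list it was 14, and taking the strongest regions of 1 replicate alone gave 8 to 9. The count of all annotated genes, 2697, was 1443 at 250 bp, 653 at 100 bp (a distance chosen after seeing the data), 1628 where the region had to overlap the gene, 1478 with the 937 strongest IDR peaks and 22374 with any pooled region; single replicates gave 2630 to 2651. The median distance of the summit from the 5' end was 42.5 bp, 62.5 bp for region midpoints, and 47.5 to 56.0 bp in single replicates. The mean share of unique words was 95.5% at the selected and 94.4% at the comparison genes with 50 bases; with 36 bases it was 93.4% and 90%, with 100 bases 100% and 100%, and within 100 bp it was 88.8% and 91.7%. The direction between these groups turned within 100 bp, and the cause was not tested. No paired analysis was possible because there is 1 group. Unknown depth leaves the error of single signals unknown.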
